A study of Mus musculus with 55 samples.

Results

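The genes described here were the solute carrier (SLC) genes, which encode the largest group of membrane transporters, read as pre-mRNA through mitosis, mitotic exit and early G1 of mouse embryonic stem (ES) cells. A gene was taken by its symbol alone, as every row whose name starts with Slc, a family number and the letter a, with no use of its level. Of 9911 genes in the table of the CCNA-GFP line 161 were taken, and of 10237 genes in the table of the CTCF-AID line 167. They made 173 genes of 43 families in all, 155 of them in both tables, out of 351 symbols of that form in the GENCODE vM21 annotation of GRCm38. By name, Slc9a3r1, Slc9a3r2, Slc7a6os, Slc2a4rg-ps and the adaptor gene Slc4a1ap are no carriers themselves, and they were kept because the rule takes them. The letter a leaves out families with other letters, such as Slc35b to Slc35g.

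All cells were E14Tg2a ES cells of the 129/Ola strain, grown in serum with LIF. CCNA-GFP cells carry a cyclin A-GFP reporter of the cell cycle and gave 19 libraries. CTCF-AID cells, a single clone, carry CTCF fused to an auxin-inducible degron, so that the auxin IAA at 0.5 mM removes the CTCF protein, and gave 36 libraries, 18 without IAA (-IAA) and 18 with it (+IAA). Mitotic cells were obtained with the CDK1 inhibitor RO-3306 (10 µM, 4 h), release into nocodazole (50 ng/ml, 4 h) and shake-off. Release from nocodazole followed for 20, 30, 40, 50, 60, 90 or 120 min in CCNA-GFP and for 20, 40, 50, 60, 90 or 120 min in each arm of CTCF-AID. IAA was added 2 h into the nocodazole block and was kept through the release, whereas asynchronous cells received it for 4 h. Mitotic and asynchronous cells had 3 replicates in each line and arm and each time after release had 2, except for the 50 min stage of CCNA-GFP, which has 1 library and gets no test. Methods of the study call the replicates independent.

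SLC proteins carry single substrates across the plasma membrane or organelle membranes, either down their gradient or coupled to sodium, protons or another solute. Amino acid carriers of the plasma membrane supply protein synthesis and the mTORC1 pathway, glucose carriers of the Slc2 family and lactate carriers of the Slc16 family serve glycolysis, and the Slc25 family moves ADP, ATP, phosphate and metabolites over the inner mitochondrial membrane. Zinc is exported from the cytosol by Slc30 carriers and imported by Slc39 carriers. ES cells divide fast and take up large amounts of glucose and amino acids.

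The values are TPM, a transcript abundance scaled to a fixed sum over all isoforms of a library, of an unspliced isoform that was added to the annotation of each gene, so they report intron-containing RNA. Depth is unknown because TPM keep no read numbers, and every difference was judged against the spread between libraries that the fit left over. The sum of all listed TPM was 13747 to 17245 in the mitotic CCNA-GFP libraries and 30992 to 42576 after 60 min. A difference from mitosis therefore includes the change of this sum. Whether that change is a rise of listed pre-mRNA against other RNA or a factor of the library was not tested. Each difference was also taken after every library was brought to the same sum of listed TPM. That scaling lowered the median difference of all CCNA-GFP genes by 0.77 on the log2 scale after 60 min, by 0.31 after 40 min, by 0.64 after 120 min and by 0.30 in asynchronous cells. In bulk RNA, fewer cells that transcribe a gene and less RNA per cell cannot be told apart. Of 10 ES cell markers 9 had a row in each table, with a sum of 67.6 to 138 TPM in asynchronous CCNA-GFP and 69.4 to 152 TPM in asynchronous CTCF-AID libraries. None of 5 primitive endoderm markers had a row, and 2 of 6 fibroblast markers had one in CTCF-AID only, at a sum of 0.348 to 1.17 TPM in asynchronous cells. Germ layer markers had 3 of 6 rows in CCNA-GFP and 4 in CTCF-AID, with asynchronous sums of 0.406 to 2.17 and 0.409 to 5.82 TPM, and trophoblast markers 1 and 2 of 4, with 0.204 to 2.53 and 0.0984 to 2.08 TPM, and their part in the results was not tested. Genes entered the tables by their level outside mitosis (a mean over 0.5 TPM in asynchronous cells, or in 2 or more samples after release), so that a gene transcribed in mitosis alone would be missing. In mitosis 50 of the 161 SLC genes had a mean below 0.5 TPM.

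In CCNA-GFP cells 133 of the 161 SLC genes were higher than in mitosis after 60 min and 2 were lower, with the first call after 30 min, and their median declined in part after 60 min. Their median level was 0.745 TPM in mitosis, 1.27 TPM after 40 min, 2.09 TPM after 60 min, 1.69 TPM after 120 min and 1.19 TPM in asynchronous cells. The median of their log2 differences from mitosis, on the log2(TPM + 1) scale, was 0.06 after 20 min, 0.25 after 40 min, 0.79 after 60 min, 0.61 after 120 min and 0.31 in asynchronous cells, beside 0.06, 0.26, 0.79, 0.68 and 0.33 for all listed genes. A pseudocount of 0.1 in place of 1 raised the 60 min median of the SLC genes, as given in the last section. After scaling to the same sum the median of the SLC genes was -0.02 after 40 min and 0.06 after 60 min. The SLC genes lay close to all listed genes at each of these stages, and after 40 min their direction turned with the scaling.

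**Figure D1:**
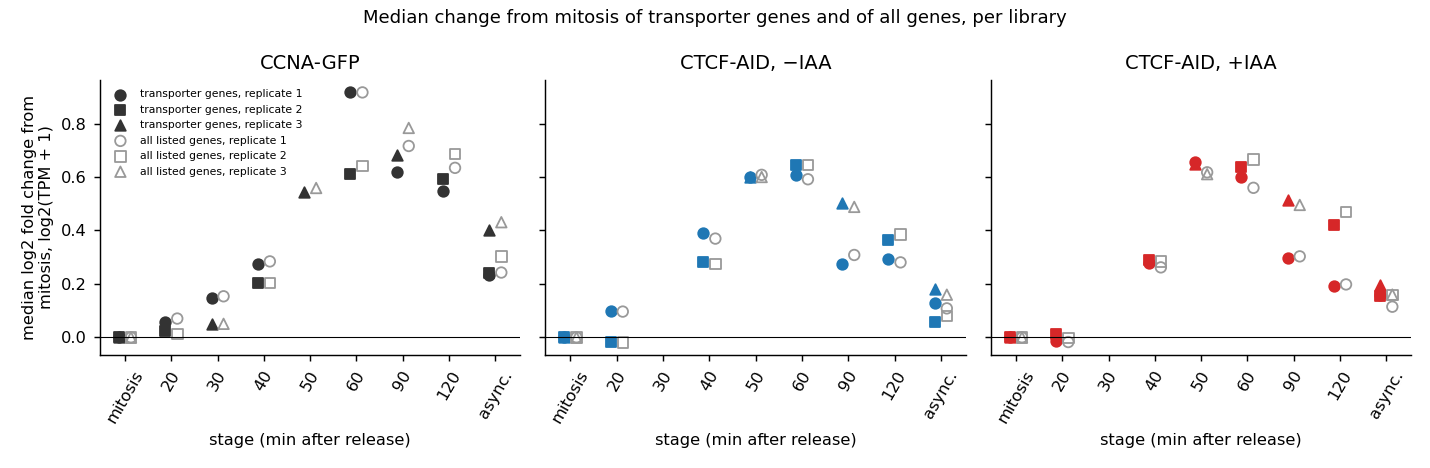
Median log2 change from mitosis of the same replicate, on log2(TPM + 1), by stage in each library of CCNA-GFP, CTCF-AID without IAA and CTCF-AID with IAA. Filled symbols are the SLC genes (161 or 167) and open symbols all listed genes, with 1 symbol per library and its shape giving the replicate. The filled and open symbols climb together, the filled ones to 0.92 and 0.61 and the open ones to 0.92 and 0.64 after 60 min in the CCNA-GFP replicates 1 and 2, a rise that scaling to the same sum of listed TPM takes down to a median of 0.06.

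No SLC gene passed an adjusted p of 0.05 after 20 min (limma, Benjamini-Hochberg over all genes; 0% of all genes were called). Unadjusted p was below 0.05 for 8 of them, beside 2.55% of all genes. The share of 8 in 161 is near what chance gives at this threshold, but all 8 were higher than in mitosis. Whether that departs from chance was not tested. At 30 min 1 SLC gene was called higher, 0.621% of 161, beside 0.303% of all genes, and with the same sum 4 were, beside 0.313%. The 1 gene was Slc39a7, the zinc exit channel of the endoplasmic reticulum, named after its values were seen (ENSMUSG00000024327, chr17:34028269-34031682). Its pre-mRNA was at 1.85, 1.43 and 1.83 TPM in mitosis and at 3.31 and 3.33 TPM after 30 min, a log2 difference of 0.61 ± 0.12 (SE, adjusted p = 0.0474 by limma). Most of Slc39a7 is also covered by another transcript on its strand, Gm20427, which had no row. By 60 min Slc39a7 had reached 9.36 and 6.65 TPM. With the same sum Slc39a7 was joined after 30 min by Slc5a3, the copper importer Slc31a1 and the mitochondrial carrier Slc25a44, the last pair also named after their values were seen.

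At 40 min 83 SLC genes had risen, which is 51.6% of them beside 49.3% of all genes, and after 60 min 133 had risen and 2 had fallen (82.6% and 1.24%, beside 88.3% and 0.515% of all genes). Of the SLC genes 133 were higher than in mitosis after 90 min and 137 after 120 min, and of all genes 89.1% and 90.2%. In asynchronous cells 112 were higher than in mitosis, 69.6% beside 70.4% of all genes. After scaling to the same sum these splits became 49 higher and 42 lower after 40 min, 67 and 53 after 60 min, 55 and 47 after 90 min, 52 and 42 after 120 min, and 37 and 25 in asynchronous cells. Of all genes 23.7% were then higher and 31.3% lower after 40 min, and 36.4% and 33.3% after 60 min. These shares were 31.8% and 26.2% after 90 min, 28.7% and 23.5% after 120 min, and 24.8% and 20.3% in asynchronous cells. By calls alone all genes leaned to the lower side after 40 min and the SLC genes to the higher, a difference that was not tested. The SLC median there was -0.02. The count in asynchronous cells leaned on a single replicate, with 67 genes higher without replicate 3. Leaving out replicate 1 or 2 leaves 1 library after 40, 60 and 120 min, so no count is given there. Shares of all genes are not given for fits that leave out a replicate, so this fall cannot be read as particular to SLC genes. Across stages 40 SLC genes had their highest mean after 50 min, 45 after 60 min and 33 after 90 min. Another 16 had it after 120 min and 27 in asynchronous cells. The shares of SLC genes and of all genes were 24.8% and 21.7% after 50 min, 27.95% and 23.05% after 60 min, and 20.5% and 37.1% after 90 min. After 120 min they were 9.94% and 7.31%, and in asynchronous cells 16.8% and 10.4%, and they were not tested. These means ignore the replicate, and the one of 50 min is 1 library of replicate 3. The stage of 90 min holds replicates 1 and 3, whereas 60 and 120 min hold replicates 1 and 2. In mitosis replicate 3 had the highest sum of listed TPM, 17245 against 14734 and 13747. Summed over the family, the SLC genes held 1.28% to 1.30% of the listed TPM in the 3 mitotic libraries. They held 1.41% to 1.44% in the libraries after 60 min, which do not overlap those, and 1.27% to 1.32% in asynchronous cells. Without the 5 genes of the highest mean the 3 ranges were 1.039% to 1.097%, 1.127% to 1.157% and 1.063% to 1.127%, closer to each other.

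Of the amino acid carriers 16 of 19 were higher and 1 lower after 60 min, with a median of 0.79, which scaling to the same sum turned to -0.08, with 7 higher and 7 lower. Slc7a5, also known as LAT1, exchanges large neutral amino acids such as leucine and lies at chr8:121881150-121907694 on the minus strand. It was at 1.43, 1.23 and 2.00 TPM in mitosis, 2.65 and 1.69 TPM after 20 min, 5.97 and 4.35 TPM after 40 min and 13.6 and 8.59 TPM after 60 min. The libraries after 40 and 60 min were all above mitosis, by 1.46 ± 0.18 and 2.41 ± 0.18 (SE) in log2 (adjusted p = 2.9e-06 and 4.1e-10 by limma), and the asynchronous libraries at 2.26, 2.12 and 5.38 TPM were all below those after 60 min. Slc7a5 shares its whole length with an annotated gene on the opposite strand, Gm20388, and the strand setting of the counting is not given in the sources used here.

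Slc3a2, the heavy chain that Slc7a5 needs at the cell surface, moved less, from 4.42, 3.69 and 5.06 TPM in mitosis to 7.99 and 5.94 TPM after 60 min, by 0.68 ± 0.14 (adjusted p = 9.8e-05 by limma). After scaling to the same sum Slc3a2 was lower after 60 min, by 0.48, while Slc7a5 stayed higher by 1.38. The glutamine carrier Slc1a5 (chr7:16781340-16798274) went from 0.836, 0.797 and 1.15 TPM in mitosis to 3.65 and 2.17 TPM after 40 min and 8.90 and 4.60 TPM after 60 min, a difference of 2.08 ± 0.16 (adjusted p = 4.7e-10 by limma). Its 60 min libraries lay above all 3 asynchronous ones, at 2.23, 1.71 and 3.69 TPM.

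Slc38a2, a sodium-coupled carrier of small neutral amino acids that cells raise when amino acids run short, was among the SLC genes with the highest level (chr15:96687392-96699730, minus strand). It measured 5.54, 4.72 and 5.62 TPM in mitosis, 7.97 and 5.84 TPM after 20 min, 15.8 and 13.8 TPM after 40 min, 27 TPM in the single library after 50 min and 25.3 and 21.4 TPM after 60 min. It rose by 2.04 ± 0.15 after 60 min (adjusted p = 3.1e-10 by limma) and had come down to 12.9 and 13.3 TPM after 120 min, above the 7.17, 4.77 and 9.59 TPM of asynchronous cells. Its neighbour Slc38a1 on the same strand (chr15:96571418-96642913) peaked later, with 1.74 and 2.06 TPM after 40 min, 4.15 and 3.39 TPM after 60 min and 4.79 and 5.96 TPM after 90 min, against 1.39, 1.79 and 2.02 TPM in mitosis. Slc38a1 was higher by 0.90 ± 0.14 after 60 min (adjusted p = 3.3e-06 by limma), and with the same sum by -0.08, not called. The cationic amino acid carrier Slc7a3 was higher by 0.72 ± 0.17 after 60 min (adjusted p = 5.5e-04 by limma) but lower by 0.39 with the same sum, and it was back at 2.72 and 2.94 TPM after 120 min from 5.94 and 4.74 TPM after 60 min.

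The 250 bases upstream of the RefSeq start of Slc38a2, the amino acid carrier of the highest level after 60 min, are shown here in the direction of transcription (GRCm38.p6, chr15:96699729-96699978, minus strand).
Slc38a2 promoter: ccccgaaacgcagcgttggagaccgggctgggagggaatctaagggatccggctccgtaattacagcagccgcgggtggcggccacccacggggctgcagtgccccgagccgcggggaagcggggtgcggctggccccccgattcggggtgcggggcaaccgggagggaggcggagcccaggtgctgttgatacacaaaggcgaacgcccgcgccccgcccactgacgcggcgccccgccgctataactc
There are no capitals in it because the core of the CTCF motif, AGNNGGCGC on either strand, is not in these bases. For Slc7a5, Slc1a5 and Slc38a1 no promoter is shown.

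Sugar and polyol carriers, grouped like all classes by family number, had 11 of 15 genes higher after 60 min and a median of 1.00, or 0.03 with the same sum, where 6 were higher and 4 lower. The glucose carrier Slc2a1 (GLUT1, chr4:119108711-119137983) was at 3.66, 4.75 and 4.98 TPM in mitosis, 6.0 and 5.69 TPM after 40 min, 13.3 and 9.44 TPM after 60 min and 9.61 and 12.4 TPM after 120 min. Its rise of 1.22 ± 0.17 after 60 min (adjusted p = 1.0e-06 by limma) was one of those that ended with the same sum, at 0.03. Asynchronous libraries held 7.86, 12.6 and 11 TPM of Slc2a1, so that the levels of 60 min, 120 min and asynchronous cells overlapped. Slc2a3, the glucose carrier GLUT3, reached 3.08 and 4.21 TPM after 60 min from 0.766, 2.19 and 1.10 TPM in mitosis, a difference of 1.00 ± 0.12 (adjusted p = 1.8e-07 by limma) and 0.08 with the same sum, not called.

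Slc5a3, the sodium-coupled carrier of myo-inositol, showed the largest mean change over 20 to 90 min of all SLC genes. It was at 0.801, 0.731 and 0.647 TPM in mitosis, 1.85 and 1.37 TPM after 20 min, 6.23 and 4.63 TPM after 40 min and 8.45 and 4.49 TPM after 60 min, with 0.986, 1.34 and 0.901 TPM in asynchronous cells. The difference was 1.84 ± 0.16 after 40 min and 2.02 ± 0.16 after 60 min (adjusted p = 1.2e-07 and 9.2e-10 by limma). All 29152 bases of Slc5a3 (chr16:92058322-92087473) lie within the listed gene Mrps6 on the same strand, so unspliced reads of the pair cannot be told apart by position and the value of Slc5a3 is uncertain.

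Of the monocarboxylate and organic ion carriers 8 of 11 rose by 60 min (median 0.64, or 0.18 with the same sum, where 5 were higher and 4 lower). Slc16a1, or MCT1, which carries lactate and pyruvate (chr3:104638668-104658462), was an early and short one. Its pre-mRNA was at 1.19, 1.33 and 1.52 TPM in mitosis, 5.97 and 5.55 TPM after 40 min, 8.29 and 7.39 TPM after 60 min, 3.50 and 4.51 TPM after 90 min and 2.60 and 3.22 TPM after 120 min. The change was 1.94 ± 0.16 from mitosis to 60 min and -1.18 ± 0.17 from 60 to 120 min (adjusted p = 7.7e-10 and 3.0e-05 by limma), the largest fall of any SLC gene over that hour.

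Mitochondrial carriers of the Slc25 family, the largest class, rose in 33 of 37 genes by 60 min, with none lower and a median of 1.13, or 0.34 with the same sum, where 23 were higher and 8 lower. Set by family number, the class also counts the peroxisomal carrier Slc25a17. Slc25a39, the importer of glutathione into mitochondria, went from 0.453, 0.631 and 0.787 TPM in mitosis to 3.62 and 3.47 TPM after 40 min and 7.57 and 6.93 TPM after 60 min, a difference of 2.41 ± 0.15 (adjusted p = 1.1e-10 by limma). The oxoglutarate-malate carrier Slc25a11 changed by 2.01 ± 0.13, from 0.697, 0.531 and 0.731 TPM to 5.94 and 4.88 TPM (adjusted p = 1.2e-10 by limma). Slc25a11 overlaps the listed gene Rnf167 on the other strand by 245 bases.

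Among the ADP/ATP carriers Slc25a5 (ANT2) went from 1.64, 1.26 and 1.46 TPM in mitosis to 7.88 and 6.15 TPM after 60 min and Slc25a4 (ANT1) from 1.39, 2.16 and 1.72 TPM to 4.64 and 3.89 TPM. Their differences were 1.77 ± 0.13 and 0.93 ± 0.13 (adjusted p = 4.0e-10 and 1.4e-06 by limma), and with the same sum 0.76 and, not called, -0.06. The phosphate carrier Slc25a3 reached 24.4 and 18.6 TPM after 60 min from 5.33, 6.84 and 5.06 TPM, by 1.72 ± 0.15 (adjusted p = 3.0e-09 by limma), and asynchronous cells held 6.38, 6.22 and 7.59 TPM of it. The pyrimidine nucleotide carrier Slc25a36 went from 7.94, 5.61 and 8.80 TPM to 25.4 and 13.1 TPM (1.34 ± 0.13, adjusted p = 1.4e-08 by limma, and 0.09 with the same sum, not called).

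All 20 metal ion carriers rose by 60 min, with a median of 0.93, or 0.21 with the same sum, where 11 were higher and 3 lower. The zinc exporter Slc30a1 (chr1:191906767-191913247), a gene that zinc induces, was at 0.453, 0.465 and 0.337 TPM in mitosis, 2.32 and 1.5 TPM after 40 min, 2.21 and 2.33 TPM after 60 min and 1.39 and 1.31 TPM after 120 min. It rose by 1.03 ± 0.14 after 40 min and 1.21 ± 0.14 after 60 min (adjusted p = 8.8e-06 and 1.1e-07 by limma). The zinc importer Slc39a10 moved late, with 0.581 and 0.648 TPM after 40 min, 1.22 and 0.990 TPM after 60 min and 1.43 and 1.53 TPM after 120 min against 0.488, 0.631 and 0.534 TPM in mitosis. Its rise after 60 min was 0.43 ± 0.08 (adjusted p = 5.0e-05 by limma), and with the same sum it was lower by 0.18. This call rests on 2 libraries after 60 min.

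Carriers of sodium, protons, chloride, bicarbonate and phosphate rose in 15 of 20 genes, with none lower and a median of 0.56, or 0.03 with the same sum, where 7 were higher and 8 lower. The class, set by family number, includes Slc4a1ap. Slc12a2 (NKCC1), which brings sodium, potassium and chloride into the cell and takes part in volume regulation, went from 0.941, 0.963 and 1.04 TPM in mitosis to 1.71 and 1.74 TPM after 40 min and 5.71 and 4.17 TPM after 60 min, and was at 1.61 and 1.88 TPM after 120 min. That is 1.62 ± 0.11 up to 60 min and -1.10 ± 0.12 from there to 120 min (adjusted p = 2.2e-10 and 3.0e-06 by limma), a transient in which the 60 min libraries stood above every other stage. The phosphate importer Slc20a1, the SLC gene of the highest mean level, went from 8.12, 6.38 and 8.60 TPM to 23.5 and 18.4 TPM and stayed at 18.4 and 18.8 TPM after 120 min. Its 60 min difference was 1.38 ± 0.14 (adjusted p = 1.5e-08 by limma), or 0.12 with the same sum, not called.

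The remaining classes held 10 genes or fewer each. Vitamin, haem and choline carriers were higher in 8 of 10 genes (median 0.59, but -0.20 with the same sum) and nucleoside carriers in 4 of 5 (0.40, but -0.21). Neurotransmitter and amine carriers were higher in 4 of 8 (0.29, but -0.13) and nucleotide-sugar carriers in 4 of 5 (0.98, and 0.20). Peptide carriers were higher in 2 of 2 (0.85, but -0.16) and lipid carriers in 4 of 5 with 1 lower (0.94, but -0.10). With the same sum the vitamin carriers split into 2 higher and 6 lower, and the nucleoside and neurotransmitter carriers each into 0 and 4. The nucleotide-sugar carriers split into 2 and 2, the peptide carriers into 1 and 1 and the lipid carriers into 2 and 1. The thiamine carrier Slc19a2 went from 8.15, 4.92 and 7.37 TPM in mitosis to 21.8 and 15.6 TPM after 60 min, far over the 4.35, 5.28 and 7.21 TPM of asynchronous cells (1.42 ± 0.17 against mitosis, adjusted p = 1.8e-07 by limma, and 0.18 with the same sum, not called). The folate carrier Slc19a1, the nucleoside carrier Slc29a1 and the CMP-sialic acid carrier Slc35a1 were higher after 60 min by 0.63, 0.90 and 0.38 and, with the same sum, lower by 0.23, 0.15 and 0.24, the call of Slc29a1 being lost there.

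Other transporters were counted beside the SLC genes. ATPases taken by symbol (Atp1, Atp2, Atp6v, Atp7 to Atp11 and Atp13a), not all of which pump ions, formed a list of 35 genes. Of these 33 were higher after 60 min (median 1.16, or 0.18 with the same sum). ABC transporters were higher in 16 of 23 with 1 lower (0.41, but -0.10). Partners and regulators of carriers, such as the mTORC1 and amino acid sensing genes, were higher in 28 of 31 with 1 lower (1.01, and 0.10), and the Slc35b to Slc35g genes in 14 of 14 (0.85, but -0.06). Of all genes 88.3% were higher, with a median of 0.79, or 0.02 with the same sum, where these 4 groups split into 17 higher and 8 lower, 9 and 11, 14 and 9, and 5 and 4.

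**Figure D2:**
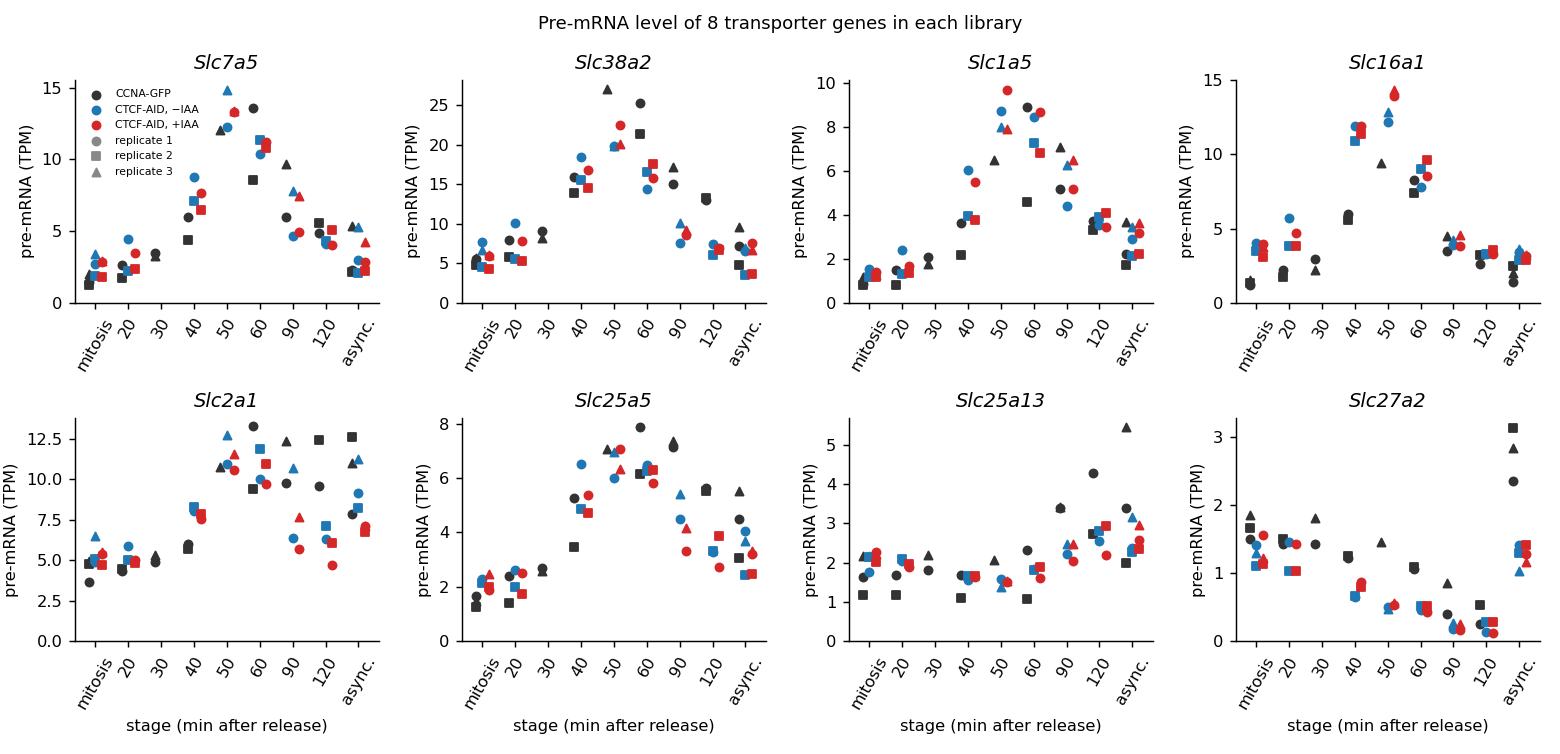
Pre-mRNA level (TPM, linear axis from 0) by stage of 8 SLC genes, with 1 symbol per library, black for CCNA-GFP, blue for CTCF-AID without IAA and red for CTCF-AID with IAA, and the shape giving the replicate. Slc7a5, Slc38a2, Slc1a5, Slc16a1, Slc2a1 and Slc25a5 are above mitosis after 60 min in each arm, Slc25a13 has its highest CCNA-GFP means after 120 min and in asynchronous cells, and Slc27a2 sinks from 1.5, 1.66 and 1.86 TPM in mitosis to 0.257 and 0.532 TPM after 120 min.

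The 2 SLC genes that fell below mitosis after 60 min in CCNA-GFP were Slc27a2 and Slc38a9. Slc27a2, an acyl-CoA synthetase for very long chain fatty acids in peroxisomes and the endoplasmic reticulum (chr2:126552407-126588243), declined over the 2 h. It was at 1.5, 1.66 and 1.86 TPM in mitosis, 1.23 and 1.25 TPM after 40 min, 1.06 and 1.10 TPM after 60 min, 0.397 and 0.847 TPM after 90 min and 0.257 and 0.532 TPM after 120 min, whereas asynchronous cells had 2.35, 3.13 and 2.85 TPM, more than any other library. The difference from mitosis was -0.31 ± 0.10 after 60 min, -0.72 after 90 min and -0.89 after 120 min (adjusted p = 0.00703 after 60 min by limma, with 2 libraries there). Scaling to the same sum deepened it to -1.12 after 60 min.

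Slc38a9, the arginine sensor of the lysosomal membrane that acts on mTORC1, was at 1.08, 1.03 and 1.29 TPM in mitosis and 0.723 and 0.778 TPM after 60 min, with 1.28, 1.34 and 1.89 TPM in asynchronous cells. Its fall was 0.22 ± 0.08 (adjusted p = 0.0186 by limma). Leaving out replicate 1 or 2 leaves 1 library after 60 min, so this small fall could not be checked that way. The Golgi sodium-proton exchanger Slc9a8 at -0.19 and the sodium-bicarbonate carrier Slc4a5 at -0.09, also among the genes with the smallest mean change over 20 to 90 min, were not called after 60 min, and with the same sum they were called lower, at -1.17 and -0.41. Slc9a8 was called lower than in mitosis after 90 and 120 min, by 0.42 and 0.36.

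From 60 to 120 min 54 SLC genes fell and 14 rose (33.5% and 8.7%, beside 28.5% and 9.6% of all genes). Both times hold replicates 1 and 2 alone, so a fit without either has 1 library at each and gives no count. With the same sum 48 were lower and 39 higher, beside 21.7% and 24.4% of all genes, which leaned the other way. Metal ion carriers fell in 10 of 20 genes with 1 higher, mitochondrial carriers in 16 of 37 with 3 higher, sugar carriers in 6 of 15 with 1 higher and amino acid carriers in 6 of 19 with 3 higher, while none of the 5 nucleoside carriers moved past the test. With the same sum the metal ion carriers had 9 lower and 3 higher, the mitochondrial carriers 13 and 8, the sugar carriers 6 and 4, and the amino acid carriers 6 and 8, so that the last turned to more higher than lower. Beside Slc16a1 and Slc12a2 the largest falls were those of the scaffold gene Slc9a3r1, from 5.33 and 5.48 TPM to 1.58 and 2.50 TPM (-1.09 ± 0.14), of the mitochondrial ornithine carrier Slc25a15, from 4.91 and 3.15 TPM to 1.39 and 1.5 TPM (-1.02 ± 0.13), and of Slc45a3, from 3.50 and 1.98 TPM to 0.734 and 0.938 TPM (-1.0 ± 0.14). Their adjusted p were 9.8e-06, 9.9e-06 and 2.5e-05 by limma.

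The largest rises over that hour were seen in Slc25a13, Slc25a17, Slc50a1, Slc38a6 and Slc10a7, none of which had been called above mitosis after 60 min. Slc25a13 (citrin, the aspartate-glutamate carrier, chr6:6041218-6217173) was at 1.64, 1.16 and 2.17 TPM in mitosis, 2.32 and 1.06 TPM after 60 min, 3.39 and 3.42 TPM after 90 min and 4.29 and 2.72 TPM after 120 min, and rose by 0.76 ± 0.14 from 60 to 120 min (adjusted p = 3.1e-04 by limma). Asynchronous cells held 3.39, 1.98 and 5.46 TPM of Slc25a13, a range that takes in the 120 min libraries. The peroxisomal carrier Slc25a17 went from 4.72 and 2.79 TPM after 60 min to 6.24 and 5.07 TPM after 120 min and was lower in asynchronous cells, at 2.67, 2.77 and 3.75 TPM. The sugar carrier Slc50a1 rose by 0.50 ± 0.11, Slc38a6 by 0.42 ± 0.09 and Slc10a7 by 0.41 ± 0.12 (adjusted p = 0.00133, 0.00135 and 0.0135 by limma). These calls rest on 2 libraries at each of the times, and they could not be checked by leaving out replicate 1 or 2.

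At 60 min 110 SLC genes stood above their asynchronous level and 21 below it (68.3% and 13%, beside 67% and 8.6% of all genes), and with the same sum 65 above and 55 below, beside 35% and 35.2% of all genes. The genes furthest below it were Slc27a2 at -0.80 ± 0.10, the glutamate carrier Slc1a3 at -0.69 ± 0.09, the lactate exporter Slc16a3 (MCT4) at -0.63 ± 0.10, Slc25a13 at -0.58 ± 0.13 and the phosphate carrier Slc20a2 at -0.58 ± 0.10, all with an adjusted p of at most 4.3e-04 by limma. Slc1a3 was at 0.533 and 0.955 TPM after 60 min, within its mitotic range of 0.488 to 0.897 TPM or just above it, and at 1.33, 2.14 and 2.09 TPM in asynchronous cells. Slc16a3 differed between replicates, with replicate 2 the highest in mitosis (1.89 TPM against 0.383 and 0.337 TPM), after 60 min (2.16 against 0.951 TPM) and in asynchronous cells (4.26 against 1.97 and 1.48 TPM).

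The early rise was larger for short genes. Across the 161 SLC genes Spearman's rho between gene length and the log2 difference from mitosis was -0.50 after 40 min, -0.41 after 60 min, -0.31 after 120 min and 0.08 in asynchronous cells, and across all genes with a length it was -0.54, -0.37, -0.23 and 0.00. These are descriptions across genes of the same libraries, and genes are not independent replicates. Of the 54 shortest SLC genes, from 2325 to 16488 bp, 40 were higher after 40 min and 52 after 60 min, with medians of 0.46 and 1.13. Of the 54 longest, from 34945 to 224658 bp, 14 were higher after 40 min and 36 after 60 min, with medians of 0.11 and 0.44. Other genes of the same lengths had medians of 0.43 and 0.96 in the short group and 0.13 and 0.59 in the long group. Slc25a13 and Slc10a7, among the late genes above, are 175956 and 224658 bp long, while Slc50a1, with 2325 bp the shortest SLC gene, was late as well.

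**Figure D3:**
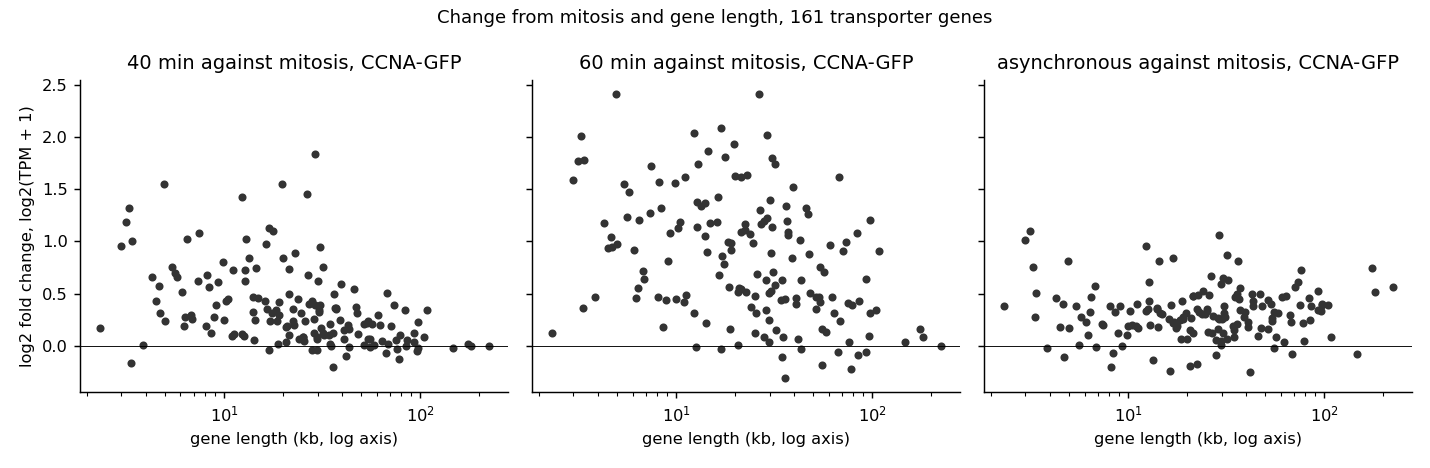
Log2 change from mitosis on log2(TPM + 1) against gene length (kb, log axis) of the 161 SLC genes in CCNA-GFP, after 40 min, after 60 min and in asynchronous cells, with 1 point per gene. The points slope down after 40 and 60 min (Spearman's rho -0.50 and -0.41) and lie level in asynchronous cells (0.08).

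The CTCF-AID line without IAA gave a second series, whose table was normalized apart, so that levels are not compared between lines. At 40 min 110 of 167 SLC genes were higher than in mitosis (65.9% beside 63.3% of all genes). At 60 min 135 were higher and 8 lower (80.8% and 4.79%, beside 84.8% and 2.7% of all genes). In asynchronous cells 57 were higher (34.1% beside 34.3%), with 33 left without replicate 1 and 28 without replicate 3. With the same sum the splits were 63 higher and 55 lower after 40 min, 79 and 50 after 60 min and 43 and 21 in asynchronous cells, beside 33.3% and 36.7%, 39.4% and 31.1%, and 27.2% and 21.4% of all genes. The median of the SLC genes was 0.35 after 40 min, 0.60 after 60 min, 0.33 after 120 min and 0.14 in asynchronous cells, and stayed above 0 with the same sum after 40 min (0.05) and 60 min (0.14). By class the same-sum medians after 60 min were 0.03 for amino acid, 0.38 for lipid and 0.04 for peptide carriers. The medians of these classes were below 0 in CCNA-GFP, and with IAA they were -0.02, 0.35 and 0.09. Nucleoside, vitamin and neurotransmitter carriers, also below 0 in CCNA-GFP, stayed below 0 without IAA, at -0.28, -0.09 and -0.06.

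Compared over the 155 SLC genes of both tables, the log2 differences from mitosis of the 2 lines correlated across genes with a Pearson's r of 0.906 after 40 min, 0.900 after 60 min, 0.734 after 120 min and 0.693 in asynchronous cells, beside 0.897, 0.866, 0.703 and 0.726 for all genes. These are descriptions, and within each line all differences share the mitotic libraries. Of these 155 genes 130 were called higher after 60 min in CCNA-GFP, 126 in CTCF-AID and 122 in both, 93.8% and 96.8% of each list, beside 93.2% and 98.1% for the 9574 genes of both tables. Slc25a39 at 2.04 ± 0.16, Slc1a5 at 2.00 ± 0.15 and Slc7a5 at 1.90 ± 0.17 in CTCF-AID after 60 min were among the 4 largest rises of SLC genes in both lines, while Slc38a2, at 1.28 ± 0.18, ranked 25 in CTCF-AID and 4 in CCNA-GFP. Slc7a5 was at 2.67, 1.85 and 3.37 TPM in mitosis, 8.75 and 7.07 TPM after 40 min, 12.3 and 14.9 TPM after 50 min, 10.4 and 11.4 TPM after 60 min and 4.11 and 4.30 TPM after 120 min. Its highest libraries were those of 50 min, a stage at which 81 of the 167 SLC genes had their highest mean, 48.5% beside 48.2% of all genes. These means ignore the replicate, as 50 min holds replicates 1 and 3 and 60 min replicates 1 and 2. In replicate 1, which has both times, the median difference of the SLC genes from mitosis was 0.60 after 50 min and 0.61 after 60 min. Slc7a5 was not compared in this way. Slc16a1 had 4.04, 3.47 and 3.81 TPM in mitosis, 11.9 and 10.9 TPM after 40 min and 7.83 and 9.03 TPM after 60 min, so that it was already past its peak after 60 min.

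The 8 genes lower than in mitosis after 60 min in this line were Slc9a8 (-0.64), Slc27a2 (-0.62), the nucleotide carrier Slc17a9 (-0.38), Slc38a9 (-0.35), Slc20a2 (-0.28), the organic cation exporter Slc47a1 (-0.26), the ascorbate carrier Slc23a1 (-0.20) and Slc38a6 (-0.16), of which Slc17a9, Slc47a1 and Slc23a1 are named for this count alone, after their values were seen. Slc27a2 was at 1.41, 1.10 and 1.29 TPM in mitosis, 0.654 and 0.662 TPM after 40 min, 0.450 and 0.511 TPM after 60 min and 0.137 and 0.280 TPM after 120 min, with 1.41, 1.30 and 1.04 TPM in asynchronous cells. All its libraries from 40 to 120 min were below all mitotic and asynchronous ones, as in CCNA-GFP, where asynchronous cells had however stood above mitosis. Slc9a8 went from 3.00, 3.66 and 3.18 TPM in mitosis to 1.60 and 1.90 TPM after 60 min (adjusted p = 2.2e-07 by limma), a call it did not reach after 60 min in CCNA-GFP, and the difference between the lines was not tested. From 60 to 120 min 96 SLC genes fell in this line (57.5% beside 53.1% of all genes) and 17 rose (10.2% beside 7.31%), or 54 and 35 with the same sum, beside 26.5% and 25.6% of all genes, and after 60 min 119 stood above the asynchronous level and 18 below it (71.3% and 10.8%, beside 75.2% and 7.06% of all genes), or 70 and 54 with the same sum, beside 37.5% and 32.9%.

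**Figure D4:**
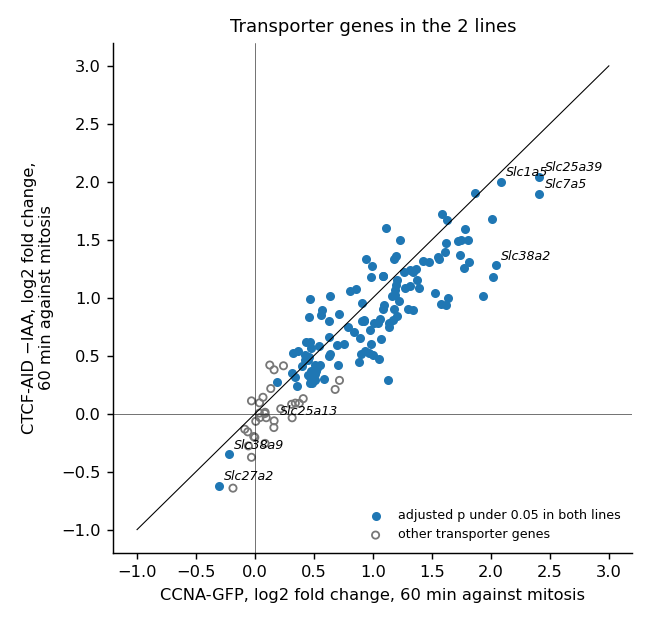
Log2 change from mitosis to 60 min of the 155 SLC genes listed for both lines, CCNA-GFP on the horizontal and CTCF-AID without IAA on the vertical axis, on log2(TPM + 1). Filled points passed an adjusted p of 0.05 in both lines, and the line marks equal change. Pearson's r is 0.900, Slc25a39, Slc7a5 and Slc1a5 lie at the upper right, and Slc27a2 is the lowest of the filled points.

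The IAA arm asks whether SLC genes need CTCF to come back after mitosis. In cells with IAA 107 SLC genes were higher than in mitosis after 40 min (64.1% beside 58.7% of all genes), 132 higher and 10 lower after 60 min (79% and 5.99%, beside 82.2% and 4.04%), 77 higher in asynchronous cells (46.1% beside 40.9%) and 97 lower after 120 min than after 60 min (58.1% beside 50.8%). With the same sum these were 64 higher and 55 lower, 80 and 52, 54 and 22, and 49 lower with 39 higher, beside 33.2% and 38.6%, 40.7% and 33.2%, 29.8% and 22.4%, and 27.2% lower with 26.6% higher of all genes. Since both arms share neither mitotic nor later libraries, each has its own values, and Slc7a5 rose by 1.95 ± 0.17, Slc1a5 by 1.99 ± 0.15 and Slc25a39 by 2.01 ± 0.16 after 60 min with IAA. The level of Ctcf pre-mRNA, 6.11 to 9.13 TPM in asynchronous cells without and 7.52 to 10.9 TPM with IAA, does not check the treatment, because the degron acts on the protein.

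Compared directly at each stage, with no block for the replicate, this fit called a single SLC gene between the arms. The study used another test, DESeq2 on counts, with the same cutoffs and reported genes that respond to the loss of CTCF. Its appendix lists sodium:bicarbonate symporter activity among the terms of genes labelled down_slow. Those calls were not compared here, so SLC genes may be among them that this fit misses. The median difference (+IAA minus -IAA) of the 167 genes was -0.06 after 20 min, -0.04 after 40 min, 0.00 after 50 min, -0.02 after 60 min, 0.01 after 90 min, -0.01 after 120 min and 0.01 in asynchronous cells. In asynchronous cells 1 gene was lower and none higher at an adjusted p of 0.1 and a log2 difference over 0.2 (limma; 0.599% and 0%, beside 0.694% and 0.313% of all genes), and after 90 min 1 gene was lower (0.599% beside 0.557%). None was lower or higher at 2 or more times after release, beside 0.44% and 0.147% of all genes, and with the replicate as a block 3 were lower in asynchronous cells and 1 at 2 or more times (1.8% and 0.599%, beside 1.53% and 1.11% of all genes). None had an early difference, over 20 to 60 min, that departed from the one in asynchronous cells, beside 0.0195% of all genes, and with the block 1 did (0.599% beside 0.41%). At an unadjusted p below 0.05 there were no SLC genes in mitosis, after 20 min or after 40 min, 2 after 50 min, 1 after 60 min, 2 after 90 min, 2 after 120 min, 5 in asynchronous cells and 3 for that early departure. Of all genes 0.225%, 0.303%, 0.830%, 1.94%, 1.78%, 2.40%, 2.10%, 2.79% and 1.14% were below it in the same order.

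The gene was Slc48a1 (HRG1), which carries haem out of lysosomes, at chr15:97778520-97792692, which overlaps Hdac7 on the other strand by 29 bases. In asynchronous cells it was at 0.911, 0.500 and 0.830 TPM without IAA and 0.276, 0.135 and 0.258 TPM with IAA, 2 groups that do not overlap. The difference was -0.51 ± 0.10 (adjusted p = 0.00525 by limma), in the same direction in 3 of 3 replicates. At 90 min the libraries held 0.986 and 0.974 TPM without and 0.427 and 0.418 TPM with IAA (-0.48 ± 0.12, adjusted p = 0.0937 by limma), and after 120 min 1.00 and 0.643 TPM without and 0.356 and 0.323 TPM with IAA (-0.44 ± 0.12, adjusted p = 0.192 by limma).

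Before that the gap was smaller, with 0.765 and 0.438 TPM against 0.454 and 0.295 TPM after 60 min (-0.22) and 0.611 and 0.466 TPM against 0.378 and 0.265 TPM after 40 min (-0.22). Slc48a1 was lower with IAA in 12 of 12 pairs after release, which are repeated times of the same 3 replicates and not independent pairs. Of all genes only 13.85% after 20 min and 22.85% after 40 min had a difference above 0, so a lower value was usual at these times. In mitosis its libraries were at 0.566, 0.488 and 0.673 TPM without and 0.596, 0.294 and 0.495 TPM with IAA, which overlap. With the replicate as a block the adjusted p were 4.4e-07 in asynchronous cells, 4.2e-05 after 90 min and 1.3e-04 after 120 min, and the early difference departed from the asynchronous one by 0.35 ± 0.06 (adjusted p = 0.00612, against 0.9999 without the block). All these levels are close to 1 TPM or below, and without replicate 1 or replicate 3 the asynchronous difference was -0.47 or -0.49 and not called (adjusted p = 1.0 and 0.372).

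**Figure D5:**
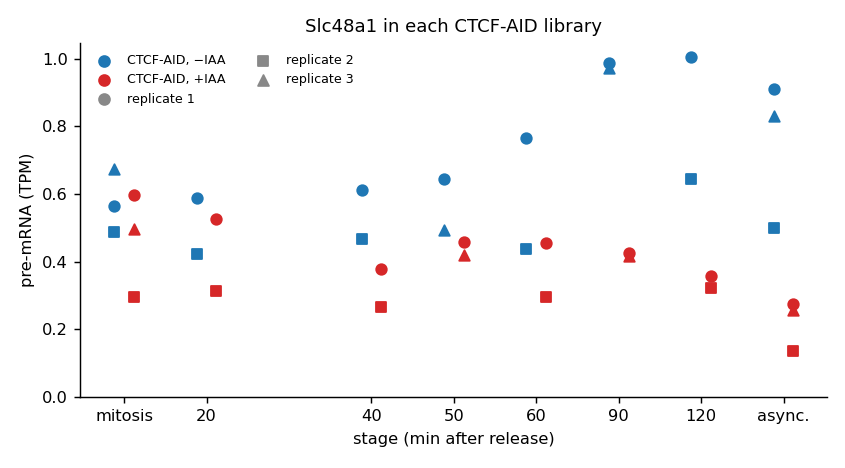
Pre-mRNA level of Slc48a1 (TPM, linear axis from 0) by stage in each CTCF-AID library, blue without and red with IAA, the shape giving the replicate. The red symbols stay below the blue ones of the same replicate at every stage after release, and in asynchronous cells 0.135 to 0.276 TPM face 0.500 to 0.911 TPM.

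The block, which the shared replicate numbers allow, brought up 3 further SLC genes that were not called without it. Slc2a1 in asynchronous cells was at 9.15, 8.21 and 11.2 TPM without and 7.10, 6.76 and 7.10 TPM with IAA, a difference of -0.39 (adjusted p = 0.0443 with the block and 0.712 without it, by limma). Slc4a5 in asynchronous cells was lower by 0.23 (0.0446 with the block), and Slc50a1 after 120 min by 0.49, from 1.23 and 0.867 TPM to 0.512 and 0.398 TPM (0.0790 with the block, 0.943 without).

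The 9 letters AGNNGGCGC, the core of the sequence that CTCF binds, were searched on both strands in promoter windows that run from 250 bases before to 50 bases after a RefSeq start on GRCm38.p6. They were found in 21 of 172 windows of SLC genes (12.2%), which is 19 of the 125 genes with a window, in 12.7% of the windows of listed genes and in 7.23% of all windows. Slc48a1 is not among the genes with a window. A pair of windows that hold the letters is shown without the last 50 bases, with each match in capitals, to set beside the IAA values of their genes.
Slc16a3 promoter (chr11:120948817-120949066, plus strand): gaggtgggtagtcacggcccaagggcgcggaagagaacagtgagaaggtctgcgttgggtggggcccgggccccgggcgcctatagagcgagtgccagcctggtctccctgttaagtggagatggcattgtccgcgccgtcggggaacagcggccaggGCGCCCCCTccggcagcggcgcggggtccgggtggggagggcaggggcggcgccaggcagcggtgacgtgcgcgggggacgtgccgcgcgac
Slc19a1 promoter, second of its windows (chr10:77032962-77033211, plus strand): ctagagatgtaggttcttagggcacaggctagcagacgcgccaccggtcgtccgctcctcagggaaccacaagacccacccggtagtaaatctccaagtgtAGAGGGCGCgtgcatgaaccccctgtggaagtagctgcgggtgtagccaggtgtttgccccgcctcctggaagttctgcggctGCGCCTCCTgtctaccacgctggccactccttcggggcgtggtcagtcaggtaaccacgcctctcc
The match in Slc16a3 is read from the other strand, and Slc19a1 holds one match on each strand, inside the gene as GENCODE draws it but outside its exons. In asynchronous cells Slc16a3 was at 5.17, 2.93 and 2.98 TPM without and 5.04, 3.64 and 2.65 TPM with IAA, and Slc19a1 at 1.84, 1.43 and 2.13 TPM without and 2.18, 1.72 and 2.42 TPM with IAA. The differences of 0.03 ± 0.29 and 0.15 ± 0.10 were not called (adjusted p = 1.0 for each by limma, and 1.0 and 0.781 with the block), and in both genes the arms overlap, although Slc19a1 was higher with IAA in 3 of 3 replicate pairs and Slc16a3 in 1. Slc38a2, whose bases above held no match, was at 6.53, 3.56 and 6.92 TPM without and 7.52, 3.68 and 6.67 TPM with IAA.

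The tables differ in 18 SLC genes, all of low level. The 12 listed for CTCF-AID alone were led by the metal ion carrier Slc39a11 at a mean of 0.677 TPM over its libraries, and the 6 listed for CCNA-GFP alone by the zinc carrier Slc39a3 at 0.787 TPM. Slc7a1 and Slc7a11, carriers of cationic amino acids and of cystine, had no row in the tables used here.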

How the data were processed

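Pre-mRNA was measured in ribosomal RNA-depleted, stranded, paired-end libraries. The authors aligned reads to mm10 with STAR and estimated TPM with RSEM on Gencode vM12, to which they had added an unspliced isoform of each gene. Tool versions and the strand setting are not given in the sources used here. They deposited the TPM of genes that were in the RefSeq curated set and passed the level filter described above. Values of a library are multiples of a small step that the sources do not explain, so depth is unknown. That step differed between libraries, from 0.0217 to 0.0381 TPM in CCNA-GFP and from 0.0184 to 0.0280 TPM in CTCF-AID. In CCNA-GFP it was 0.0381 and 0.0354 TPM after 60 min and 0.0290, 0.0230 and 0.0291 TPM in asynchronous cells. Whether the values carry a factor of the library was not tested. Columns of the CTCF-AID table were matched to libraries by line, arm, stage and replicate number, and the garbled names of its asynchronous columns were read with the help of the column names of a supplementary data set of the study. The number of unused value columns was 0.

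Differences were fitted on log2(TPM + 1) over all genes of a table with limma 3.58.1 in R 4.3.3 (trended variance prior, Benjamini-Hochberg adjustment), with the replicate number as a block between stages and without it between arms. Stage calls needed an adjusted p below 0.05, and IAA calls one below 0.1 with a log2 difference over 0.2. No count test was used, as TPM are not counts. The fit was tested on simulated data, and the outcome is not reported here. Python 3.11.15 with pandas 2.3.3, numpy 2.4.6, scipy 1.17.1 and matplotlib 3.10.9 made summaries and plots. Same-numbered libraries deviated together, with r above 0.1 for CCNA-GFP in 20 of 20 stage pairs (median r 0.43) and for CTCF-AID in 88 of 88 (median r 0.49). P-values measure the spread that a fit leaves over, pooled over all libraries of the table. Shifts of the replicates were taken out between stages but not between arms.

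Alternatives were a pseudocount of 0.1, only genes whose mean reached 1 TPM, the same sum of listed TPM in each library, no trend, the block added or removed, and each replicate left out. Members, transport classes, named genes, lists and tests were chosen with earlier results of these data known. Named genes were well-known carriers fixed by name, the 8 largest and 5 smallest mean changes over 20 to 90 min, the 5 highest levels, the 5 largest differences each way between 120 and 60 min, the 5 furthest above 60 min in asynchronous cells, and every gene called with IAA. Results of some of these genes are not reported here. Gene positions are GENCODE vM21 on GRCm38.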

Additional observations from a re-analysis of the deposited data

How the results depend on the processing

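Of 104 counts of SLC genes recomputed under the alternatives, 76 stayed within 1.5 times the value given. Of the medians of SLC genes 100 stayed within the spread between replicates and 51 moved, 13 of them with the pseudocount of 0.1 and 15 with the same sum. Among the 100, 19 without the trend and 7 between arms with the block could not move, because those settings leave the differences unchanged. The counts and medians include fits without a replicate, which leave 1 library at some stages. Scaling to the same sum of listed TPM removes the change in that sum, whose source was not tested. In CCNA-GFP it left 49 genes higher than in mitosis after 40 min, 67 after 60 min and 37 in asynchronous cells. It left 65 above asynchronous cells after 60 min, and 79 and 80 higher after 60 min in CTCF-AID without and with IAA. In the same scaling 3 genes were lower with IAA in asynchronous cells (Slc48a1, Slc2a1 and Slc25a22, the last named after its values were seen), 1 was lower at 2 or more times and 1 departed from its asynchronous difference, which was Slc48a1 in both counts, beside 1.3%, 0.879% and 0.498% of all genes. It also turned the 60 min difference of Slc3a2 to -0.48, Slc7a3 to -0.39, Slc38a1 to -0.075, Slc25a4 to -0.060, Slc29a1 to -0.15, Slc39a10 to -0.18, Slc19a1 to -0.23 and Slc35a1 to -0.24. Restricting the tests to genes whose mean reached 1 TPM, so that fewer were tested, left 73 genes higher in asynchronous CCNA-GFP cells, 33 in CTCF-AID, 35 lower at 120 than at 60 min and 0 lower with IAA in asynchronous cells, because Slc48a1 is below that level.

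Without the replicate block the counts in CCNA-GFP were 46 higher after 40 min, 71 higher in asynchronous cells and 31 lower from 60 to 120 min. In asynchronous CTCF-AID cells 23 were higher, while Slc29a1, Slc25a13, Slc25a17, Slc10a7 and Slc16a3 each lost a call. The shares of all genes without the block are not given here, so these falls cannot be read as particular to SLC genes. With the replicate block 3 genes were lower with IAA in asynchronous cells, 1 at 2 or more times, and 1 departed from its asynchronous difference, beside 1.53%, 1.11% and 0.41% of all genes.

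Leaving out 1 replicate at a time gave 45 to 75 genes higher after 40 min, 67 to 103 in asynchronous cells and 15 to 61 lower from 60 to 120 min in CCNA-GFP, and 28 to 46 higher in asynchronous CTCF-AID cells without IAA. It gave 0 to 1 genes lower with IAA in asynchronous cells and 0 to 1 at 2 or more times. The cause of these shifts between replicates was not tested, and without the shares of all genes they cannot be read as particular to SLC genes. In CCNA-GFP and CTCF-AID, the pseudocount of 0.1 and the untrended prior kept each count within 1.5 times. The pseudocount raised the median difference of CCNA-GFP SLC genes after 60 min from 0.79 to 1.33. For the named genes 317 recomputed differences kept direction and call, 24 lost the call, 2 gained it and 8 turned. These too include fits without a replicate, which leave 1 library at some stages. Genes below about 1 TPM, such as Slc48a1, rest on few reads of unknown number.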
